A study of Gloeophyllum trabeum with 9 samples.

Results

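The brown rot fungus Gloeophyllum trabeum was compared between cultures on cellulose and cultures on glucose, which make up 6 of the 9 libraries of the series, over all 11846 gene models of its expression table. The members were taken by carbon source from the labels, without use of any measured value. The 3 cellulose libraries came from mycelium grown for 5 days on nanofibrillated Avicel, a purified wood cellulose, and the 3 glucose libraries from mycelium grown for 3 days on glucose. All were shaken liquid cultures of a single strain, NBRC6430, in the same mineral medium with 1 carbon source added. Carbon source and culture time therefore differed together and cannot be told apart, and a submerged flask lacks the solid surface on which this fungus decays wood. A further 3 libraries from 5-day cultures on Japanese cedar wood are used only to show where cellulose differed from a second lignocellulosic carbon source.

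Brown rot fungi remove the cellulose and hemicellulose of wood and leave most of the lignin behind in a modified form. They combine secreted enzymes that hydrolyse polysaccharides with a chemical attack, the chelator-mediated Fenton reaction, in which iron reduced at the cell wall reacts with hydrogen peroxide to give hydroxyl radicals. Glucose is taken up directly and in many fungi represses genes for polysaccharide breakdown, so a glucose culture is the usual reference for genes that respond to a polymer.

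Values are TPM, a transcript abundance corrected for transcript length and rescaled by the authors between libraries, and this deposited scaling was used. A gene was called when limma's moderated test on log2(TPM + 0.5) gave an adjusted p (Benjamini-Hochberg, over all gene models tested) below 0.01 and the means differed by a factor of 2 or more, as upregulated where cellulose was higher and as downregulated where glucose was. A gene model was tested when 3 or more of the 6 libraries reached 0.1 TPM. Of the 10501 that did, 1093 were upregulated on cellulose, 10.4% of those tested, and 1463 were downregulated, 13.9% of those tested. Over all of them the median log2 fold change was -0.09. SE below is the standard error of the fit. The rescaled columns do not add up to the same total, and the balance of the calls depended on the scaling. With every library brought to the same total, the median moved to -1.10 and 353 genes were upregulated against 5934 downregulated. With the same total over the gene models outside the 10 highest of any library, the median was -0.47 and the calls were 686 and 2662. Median-of-ratios scaling gave 1206 and 1334, and quantile normalization 1212 and 1200. Fold changes below are on the deposited scale, so a change beyond the spread of the replicates but smaller than this shift of the median is a change relative to the deposited scaling only. The labels name 3 biological replicates for each carbon source, and p-values measure the spread between them.

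**Figure D1:**
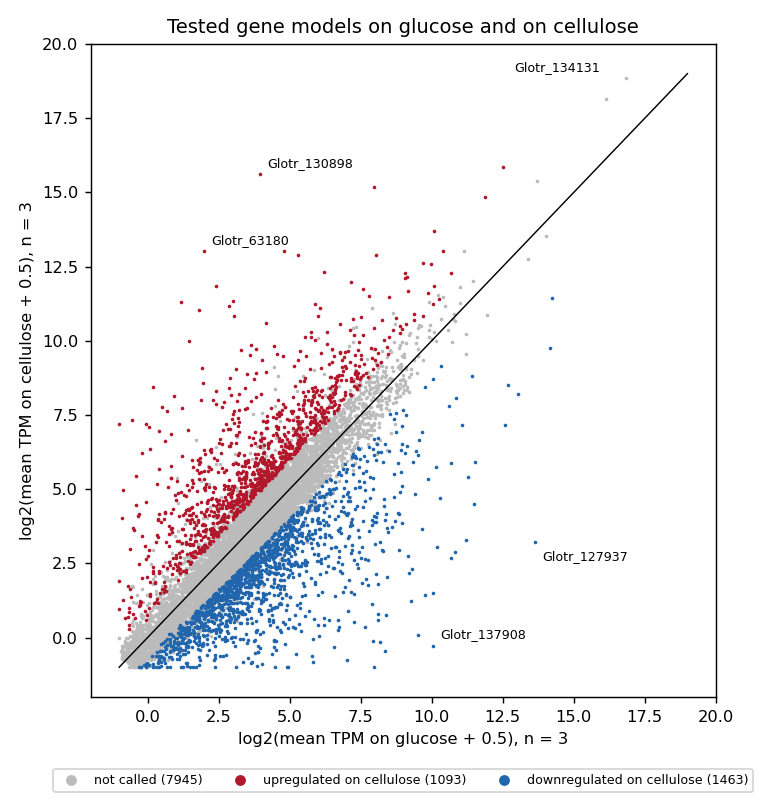
Mean TPM on cellulose against mean TPM on glucose (each n = 3) for the 10501 gene models tested, both axes as log2(mean + 0.5), with the line of equal values. The 1093 upregulated genes lie above the line and the 1463 downregulated ones below it, and Glotr_134131 at the upper right, the most abundant on both carbon sources, was not called.

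The summed TPM was 734489 ± 49504 (SD, n = 3) on glucose and 1642271 ± 58748 on cellulose, and a pair of short gene models made up most of the gap. Glotr_134131, a gene of 274 bases whose product the sources used here do not name, had 126986, 142891 and 79601 TPM on glucose and 377083, 508720 and 541751 TPM on cellulose. Glotr_50888, of 200 bases and likewise without a named product, had 77976, 89773 and 49294 TPM on glucose and 211367, 325807 and 330313 TPM on cellulose. Every cellulose library was above every glucose library for both. Only 2 other gene models lie between them in the gene order of the annotation, and the ratio of the first to the second stayed between 1.56 and 1.78 in all 6 libraries. Together they held 25.5% ± 5.78 (SD, n = 3) of the summed TPM on glucose and 46.4% ± 7.88 on cellulose. Neither was called, with log2 fold changes of 2.06 (SE 1.24, adjusted p = 0.206) and 2.01 (SE 1.03, adjusted p = 0.144), while a fit without limma's mean-variance trend gave adjusted p of 0.000993 and 0.00152. Without the pair, the summed TPM was 545649 ± 6312 on glucose and 877258 ± 95417 on cellulose. The 10 highest gene models of each library held 39.9% ± 4.78 on glucose and 62.1% ± 4.29 on cellulose, a difference of 22.2 percentage points (exact permutation test, two-sided, p = 0.1, the smallest that 3 libraries against 3 can give).

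**Figure D2:**
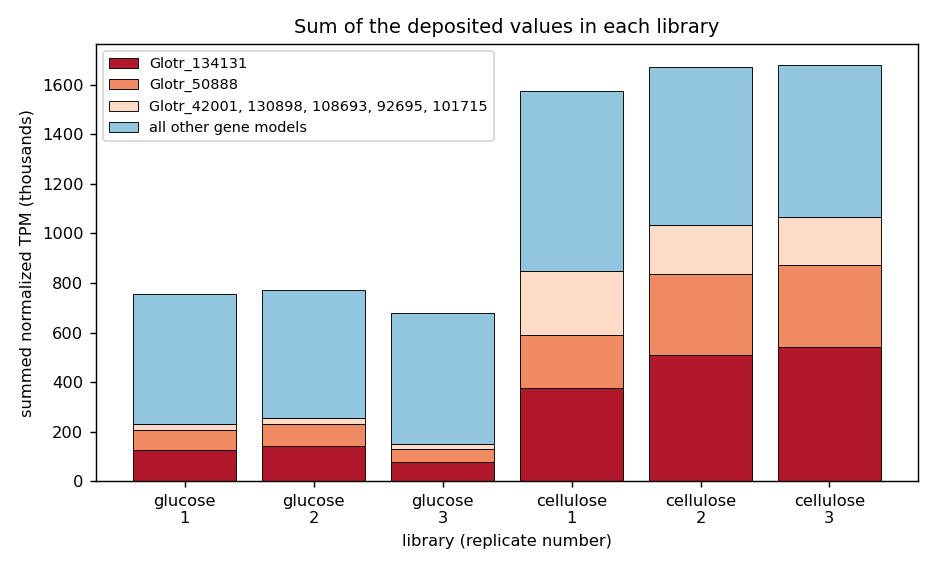
Summed normalized TPM of each glucose and cellulose library, divided into Glotr_134131, Glotr_50888, 5 further abundant gene models and all others. The cellulose columns reach 1574621 to 1680448 TPM and the glucose columns 678148 to 771024 TPM, with a larger part from the 2 short gene models on cellulose.

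Below this pair, the most abundant transcripts changed with the carbon source. Of the 15 gene models with the highest mean on each carbon source, 6 were in both lists. Among the 15 highest on cellulose 10 were upregulated, and among the 15 highest on glucose 7 were downregulated. Over all gene models tested these shares were 10.4% and 13.9%. Each list was chosen by its level in the same libraries, so a lean of its calls toward that carbon source is partly built in. A mean of at least 1000 TPM was reached by 57 gene models on glucose and by 100 on cellulose. Downregulated genes included 24 with at least 1000 TPM on glucose, and upregulated genes included 61 with at least 1000 TPM on cellulose. These counts use a fixed level on the deposited scale, on which the cellulose totals were higher, and were not repeated at the same total.

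Glotr_130898 had 9.70, 25.8 and 9.99 TPM on glucose and 42708, 36285 and 70876 TPM on cellulose. It thus passed from a low level to the fourth highest mean on cellulose. Glotr_92695 was already present on glucose, at 177, 281 and 290 TPM, and reached 45703, 26965 and 38223 TPM on cellulose, with a log2 fold change of 7.21 (SE 0.340, adjusted p = 1.70e-05). The study names the first a hypothetical protein, and the second has no product name in the sources used here. Glotr_42001, a gene model of 192 bases, had 6847, 5899 and 4919 TPM on glucose and 88269, 70884 and 19457 TPM on cellulose. The fit gave 3.09 on the log2 scale (adjusted p = 0.00965). The call was lost without glucose replicate 1 (3.20), glucose replicate 2 (3.09), glucose replicate 3 (2.96), cellulose replicate 1 (2.67) or cellulose replicate 2 (2.83), with adjusted p from 0.0214 to 0.0391, and replicate 3 was its lowest cellulose library. It was also lost at the same total (1.92, adjusted p = 0.0353) and with 0.1 added in place of 0.5 (adjusted p = 0.0116).

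The 15 largest rises by log2 fold change ran from 7.22 to 11.73. They included the endoglucanases Glotr_63180 and Glotr_138821, the AA9 polysaccharide monooxygenase Glotr_63531, the xylanases Glotr_46499 and Glotr_140289 and the alcohol oxidase Glotr_139980, all on the study's family lists. Glotr_77119, named by the study as a transporter of the major facilitator superfamily (MFS), rose with little spread, with 2.65, 3.42 and 2.87 TPM on glucose and 1843, 2404 and 1988 TPM on cellulose, a log2 fold change of 9.22 (SE 0.156, adjusted p = 7.57e-07). Of genes named only as hypothetical proteins, Glotr_126265 had 1.56, 3.03 and 0.648 TPM on glucose and 2180, 2019 and 3334 TPM on cellulose. Glotr_137245 had 6.99, 8.89 and 7.07 TPM on glucose and 1639, 1108 and 2790 TPM on cellulose. In each of the 3 genes the lowest cellulose library exceeded the highest glucose library by a factor of about 125 or more, and each kept its call with every library left out in turn and under the 4 other scalings. Glotr_110321, by contrast, rose from 8.09, 9.59 and 5.19 TPM to 1226, 1199 and 5309 TPM, with cellulose replicate 3 far above the other two.

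A switch from nearly no signal to a clear one was seen in few genes. Under 1 TPM in every glucose library and at least 10 TPM in every cellulose library were found for 15 gene models, all of them upregulated. The reverse pattern was found for 33 gene models, all of them downregulated, of which 4 were listed at 0 in every cellulose library. Both groups were chosen by a wide gap in the same libraries that gave the calls. That all of them were called was therefore nearly fixed by the choice. Glotr_125226, another MFS transporter by the study's naming, was among the first group, with 0.0305, 0.392 and 0.116 TPM on glucose and 198, 196 and 83.9 TPM on cellulose. Another was Glotr_46670, annotated as an alcohol dehydrogenase, which was listed at or next to 0 in the 3 glucose libraries and at 340, 17.3 and 84.6 TPM on cellulose. Its adjusted p was 0.00105, but with 1 cellulose library left out it fell below the filter and was not tested. Glotr_127974 showed the reverse, with 234, 275 and 245 TPM on glucose and a listed value of 0 in all 3 cellulose libraries, so no ratio is given for it, and it was likewise not tested when 1 glucose library was left out.

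Enzymes of polysaccharide breakdown were examined family by family. The study lists 30 genes for cellulose and hemicellulose (families GH5_5, GH12, AA9, GH131, GH3, GH1, GH10, GH5_7 and CE1), all of which were tested. Of the 30, 16 were upregulated and 1 was downregulated, against 10.4% and 13.9% of all gene models tested. Their median log2 fold change was 2.46, against -0.09 over all. With every library at the same total, 14 were upregulated and 7 downregulated, at a median of 1.38. Over all 10508 gene models tested under that scaling, 353 were upregulated and 5934 downregulated, at a median of -1.10. The study's tables were made from these same libraries and cannot serve as independent evidence of a direction. Summed over the 30 genes, the level was 643 ± 105 TPM (SD, n = 3) on glucose and 29731, 40585 and 12029 TPM in cellulose replicates 1, 2 and 3.

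The hemicellulose genes rose with the cellulases, in cultures whose stated carbon source was cellulose alone. Of the 6 genes, 5 were upregulated, against 10.4% of all gene models tested. The GH10 family holds endo-xylanases, which cut the xylan backbone, and Glotr_46499 had 6.24, 8.0 and 6.40 TPM on glucose and 2789, 3279 and 893 TPM on cellulose, with a log2 fold change of 8.10 (SE 0.476, adjusted p = 3.86e-05). A further GH10 gene, Glotr_140289, had 2.12, 3.06 and 1.57 TPM on glucose and 1272, 1605 and 201 TPM on cellulose, with 8.12 (SE 0.757, adjusted p = 0.000244). For mannan, the main hemicellulose of softwood, the GH5_7 mannanase Glotr_135369 had 8.33, 9.27 and 5.42 TPM on glucose and 213, 240 and 143 TPM on cellulose. Glotr_117128, of the esterase family CE1, which removes side groups from hemicellulose, had 4.48, 5.58 and 4.29 TPM on glucose and 345, 494 and 113 TPM on cellulose. The groups were far apart in all of these genes, and the log2 fold changes of the last 2 were 4.60 (adjusted p = 3.55e-05) and 5.68 (adjusted p = 0.000208). The GH1 family of intracellular beta-glycosidases was uneven. Glotr_141319 rose from 6.07, 5.47 and 2.81 TPM to 234, 267 and 195 TPM, with a log2 fold change of 5.51 (adjusted p = 2.15e-05), and none of the other 4 GH1 genes was called.

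A gene outside these lists, chosen after its values were seen, belongs with them by function. Glotr_46545 is annotated to CE15, the family of glucuronoyl esterases, which cleave the ester bond between xylan and lignin. It had 9.30, 10.2 and 8.47 TPM on glucose and 1135, 1110 and 251 TPM on cellulose, with a log2 fold change of 6.12 (SE 0.567, adjusted p = 0.000239).

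Cellulose replicate 3 stood apart in these enzymes. Of the 16 upregulated cellulose and hemicellulose genes, 14 had their lowest cellulose value in replicate 3, whereas of all 1093 upregulated genes 436 were lowest and 459 were highest in it. In Glotr_63180, a GH5_5 endoglucanase, replicate 3 was at 3057 TPM against 8657 and 13123 TPM, and in Glotr_138821, a GH12 endoglucanase, at 1319 TPM against 4871 and 4904 TPM. Replicate 3 was still at least 65.8 times the highest glucose library in these 2 endoglucanase genes and in both called GH10 genes. Without cellulose replicate 3, 17 of the 30 genes were upregulated and 2 downregulated. In the other direction, replicate 3 was the highest cellulose library for Glotr_130898, Glotr_126265, Glotr_110321 and Glotr_137245, and for the glycopeptide gene Glotr_132851 described below.

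**Figure D3:**
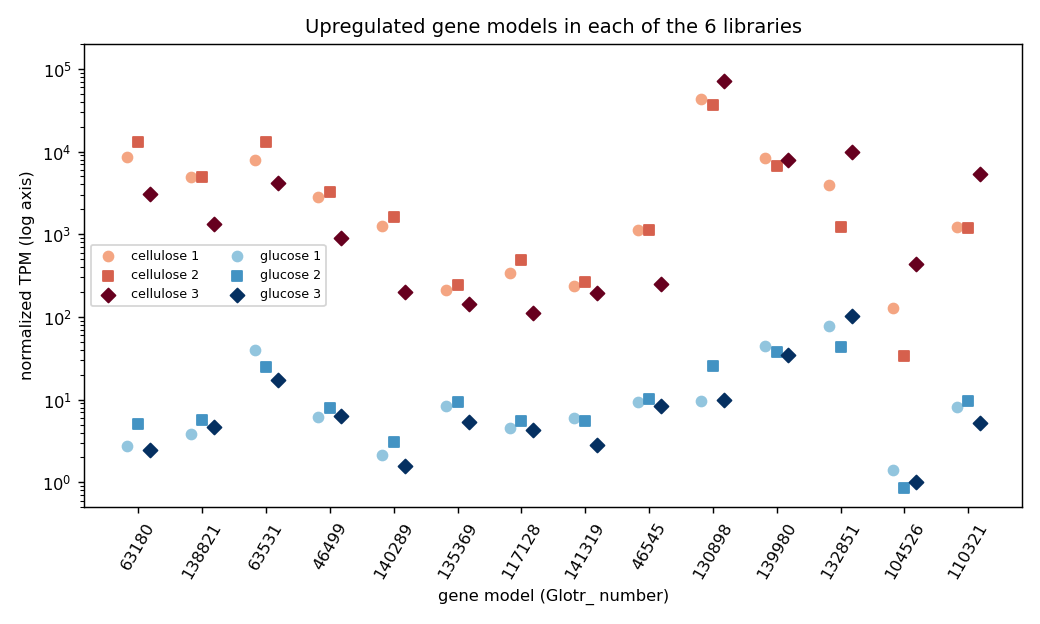
Normalized TPM on a log axis of 14 upregulated gene models in the 3 glucose (blue) and 3 cellulose (red) libraries, with a symbol for each replicate number. Cellulose replicate 3 (dark red diamonds) is lowest in the 9 genes for polysaccharide breakdown from Glotr_63180 to Glotr_46545, and highest in Glotr_130898, Glotr_132851, Glotr_104526 and Glotr_110321.

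Pectin genes did not follow. Of 12 genes in the families GH28 and CE8, which hydrolyse and demethylate pectin, 1 was upregulated and none downregulated, and their median log2 fold change was -0.23. Over all gene models tested 10.4% were upregulated and 13.9% downregulated, at a median of -0.09. The upregulated count therefore does not set the pectin genes apart from other genes. The single call was Glotr_54367, a GH28 gene at a low level, with 1.11, 1.56 and 1.30 TPM on glucose and 3.31, 3.98 and 4.45 TPM on cellulose. Its log2 fold change of 1.28 (adjusted p = 0.00101) fell to 0.33 and was not called with every library at the same total. Under that scaling 6 of the 12 were downregulated, beside 5934 of all 10508 gene models tested. The summed level of the pectin genes was 60.5 ± 8.19 TPM (SD, n = 3) on glucose and 37.1 ± 10.4 TPM on cellulose.

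Genes for the oxidative attack were next. The Fe3+-reducing glycopeptide (GLP) is a small secreted protein that has been proposed to reduce iron for the Fenton reaction, a role that is not settled. All 4 GLP genes listed by the study were upregulated on cellulose as deposited, against 10.4% of all gene models tested. Of the 4, 2 stayed so at the same total and 3 when any 1 glucose library was left out. The study also called all 4 upregulated on cellulose from these libraries. Their calls are therefore not independent evidence of a direction. Glotr_101715, the most abundant, had 3428, 3149 and 4595 TPM on glucose and 52234, 17111 and 18593 TPM on cellulose, a log2 fold change of 2.80 (SE 0.545, adjusted p = 0.00562). Its call was lost without glucose replicate 1 (2.75), glucose replicate 2 (2.68) or glucose replicate 3 (2.96), at adjusted p of 0.0289, 0.0295 and 0.0172. Glotr_132851 had 77.6, 43.3 and 102 TPM on glucose and 3934, 1225 and 9979 TPM on cellulose, with 5.69 (SE 0.744, adjusted p = 0.00107). Glotr_104526 had 1.41, 0.849 and 1.01 TPM on glucose and 127, 33.4 and 432 TPM on cellulose, with 6.29 (SE 0.832, adjusted p = 0.00112). Both had the same order of cellulose libraries, with replicate 3 highest and replicate 2 lowest. Glotr_58158 had 178, 171 and 176 TPM on glucose and 673, 521 and 504 TPM on cellulose, and its rise of 1.68 on the log2 scale (SE 0.165, adjusted p = 0.000308) was 0.52 and not called at the same total (adjusted p = 0.0442).

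Hydrogen peroxide, the other reactant, is made by oxidases of the AA3 and AA5 families. Of 15 such genes listed by the study 10 were upregulated and none downregulated, against 10.4% and 13.9% of all gene models tested. The median log2 fold change was 1.37. The count was 3, 4 and 5 without glucose replicates 1, 2 and 3 and 5, 8 and 11 without cellulose replicates 1, 2 and 3, while the median stayed between 1.18 and 1.52, and at the same total it was 4 at a median of 0.22. The alcohol oxidase Glotr_139980, of subfamily AA3_3, which oxidises methanol and similar alcohols, was the exception in size and precision. It had 44.7, 37.5 and 34.6 TPM on glucose and 8348, 6697 and 7825 TPM on cellulose, with a log2 fold change of 7.60 (SE 0.183, adjusted p = 2.09e-06), and made up most of the summed level of the 15 genes on cellulose, which was 9796 ± 1639 TPM (SD, n = 3) against 471 ± 36.1 TPM on glucose. The 9 genes listed for AA3_2, which includes aryl-alcohol oxidases, were all called upregulated on cellulose or cedar by the study from these libraries. Their calls, which make up most of those among the 15, are therefore not independent evidence of a direction. Of the 9, 7 were upregulated at a median log2 fold change of 1.37. At the same total 3 were called (median 0.22), and 2, 3, 4 and 4 without glucose replicates 1, 2 and 3 and cellulose replicate 1. Neither of the 2 genes of AA5_1, listed by the study as copper-radical oxidases, was called.

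Oxalate chelates iron and lowers the pH around brown rot hyphae. Glotr_42369, listed by the study as oxaloacetate acetylhydrolase, the enzyme that splits oxaloacetate into oxalate and acetate, had 542, 679 and 501 TPM on glucose and 3351, 4631 and 1877 TPM on cellulose. The groups did not overlap, and the log2 fold change of 2.43 (SE 0.361, adjusted p = 0.00180) lost its call without glucose replicate 1 (2.40, adjusted p = 0.0112) and at the same total (1.27, adjusted p = 0.0136). A second annotation assigns the same gene model to isocitrate lyase, an enzyme of the same superfamily. Of the 2 genes listed for glyoxylate dehydrogenase, Glotr_54623 was upregulated, from 12.8, 13.4 and 15.4 TPM to 33.5, 36.2 and 39.1 TPM, with a log2 fold change of 1.36 (adjusted p = 0.000244), which was 0.22 and not called at the same total.

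Quinone reduction and laccase genes moved less uniformly. Of 3 genes of AA6, the benzoquinone reductases, none was upregulated. Glotr_82342, the most abundant, had 264, 292 and 416 TPM on glucose and 84.7, 60.6 and 128 TPM on cellulose, with a log2 fold change of -1.86 (adjusted p = 0.00278) that lost its call without glucose replicate 2 (-1.92), glucose replicate 3 (-1.67) or cellulose replicate 1 (-1.84). Among 4 laccase genes of AA1_1, Glotr_130426 rose from 0.890, 0.941 and 0.674 TPM to 26.4, 10.9 and 15.3 TPM, with 3.67 (SE 0.307, adjusted p = 0.000154). Another, Glotr_107459, fell from 1.91, 1.81 and 1.76 TPM to 0.605, 0.665 and 0.778 TPM, with -0.98 (SE 0.135, adjusted p = 0.00134), and kept its call except with quantile normalization (-0.57, adjusted p = 0.0152) and with the fold threshold set on the fit, which -0.98 misses.

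Secondary metabolism was split. Terpene synthases build the carbon skeletons of terpenoids, and of 10 such genes 4 were upregulated and 2 downregulated. The upregulated ones numbered 1 at the same total and 1, 2, 2 and 2 without glucose replicates 1, 2 and 3 and cellulose replicate 1. Glotr_116237 kept its call under every alternative, with 5.40, 6.0 and 9.27 TPM on glucose and 232, 97.5 and 59.2 TPM on cellulose, a log2 fold change of 3.94 (SE 0.484, adjusted p = 0.000815). Glotr_47645 fell from 7.47, 4.66 and 4.51 TPM to 0.720, 1.53 and 1.17 TPM, with -1.88 (SE 0.262, adjusted p = 0.00139). Polyketide synthases assemble aromatic and other metabolites from acyl units, and of the 4 genes listed for them none was upregulated and 2 were downregulated. The more abundant, Glotr_116317, had 92.4, 130 and 90.6 TPM on glucose and 10.8, 18.7 and 20.5 TPM on cellulose, with -2.64 (SE 0.272, adjusted p = 0.000372). Larger falls were seen in a pair of gene models named as polyketide synthases in the annotation and chosen here after their values were seen. Glotr_11868 had 335, 327 and 254 TPM on glucose and 3.35, 7.0 and 11.1 TPM on cellulose, and Glotr_11514 had 384, 406 and 277 TPM on glucose and 7.54, 10.5 and 15.4 TPM on cellulose. On the log2 scale these falls were -5.45 (adjusted p = 7.49e-05) and -4.97 (adjusted p = 3.22e-05), and both were lowest in the first cellulose replicate and highest in the third.

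**Figure D4:**
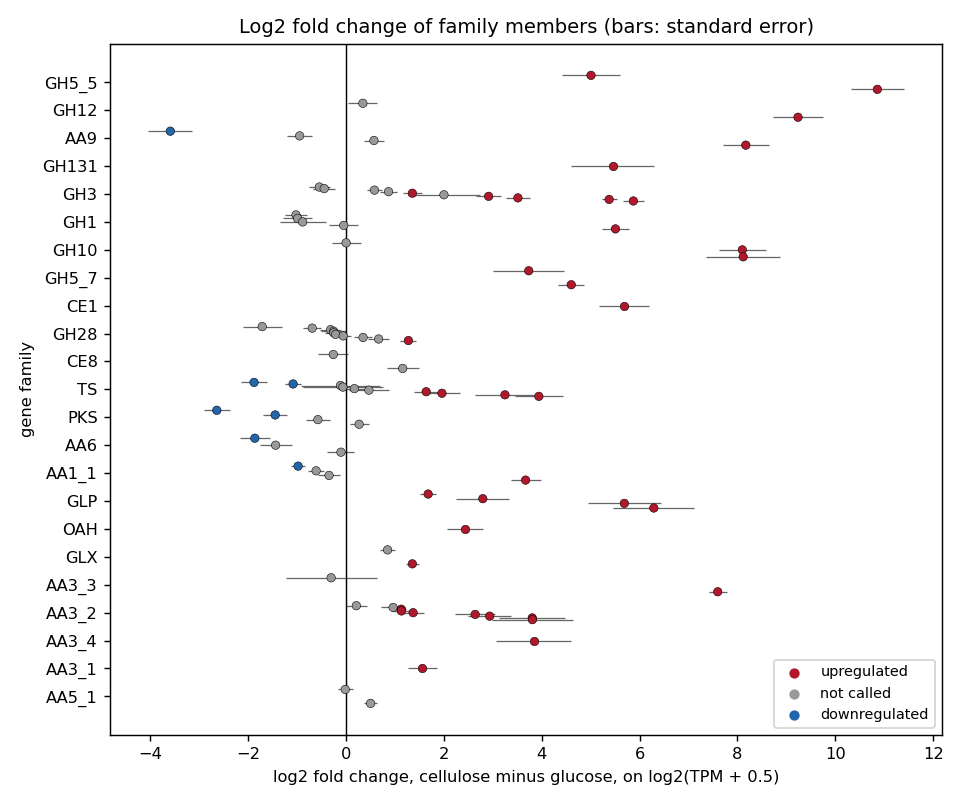
Log2 fold change between cellulose and glucose, on log2(TPM + 0.5), of every tested gene that the study lists in 23 families, with standard errors from the fit. Members of GH5_5, GH12, AA9, GH10 and AA3_3 reach furthest to the right of the plot. Those of GH28 lie between -1.71 and 1.28, and no PKS or AA6 member is upregulated.

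Genes that fell included some of the most abundant transcripts of the glucose cultures. Glotr_127937 had 12745, 10418 and 14973 TPM on glucose and 9.55, 10.7 and 6.46 TPM on cellulose, the largest fall by log2 fold change, at -10.41 (SE 0.237). The 15 largest falls ran from -10.41 to -7.73. Glotr_137908 and Glotr_137907, with 1 gene model between them in gene order, were both among the 15. The first had 994, 845 and 1364 TPM on glucose and 0.354, 0.346 and 0.292 TPM on cellulose, and the second had 1546, 1463 and 1946 TPM on glucose and 5.88, 9.84 and 2.13 TPM on cellulose. A less complete fall was seen in 2 of the highest glucose transcripts, whose gene models lie in the same neighbourhood with 10 others between them. Glotr_132972 had 18905, 16598 and 19840 TPM on glucose and 1075, 1017 and 495 TPM on cellulose, with -4.50 (SE 0.381, adjusted p = 0.000162). Glotr_132963 had 8437, 7557 and 9235 TPM on glucose and 368, 369 and 158 TPM on cellulose, with -4.91 (SE 0.373, adjusted p = 0.000104). In both, the third cellulose replicate was the lowest library.

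Hydrophobins, the small secreted proteins that coat hyphae and spores and make them water-repellent, exchanged places. Of 8 gene models with that name 7 were tested, 2 were upregulated and 3 downregulated. The dominant hydrophobin on glucose, Glotr_19724, had 16635, 18739 and 21804 TPM there and 3987, 2463 and 1927 TPM on cellulose, with a log2 fold change of -2.83 (SE 0.402, adjusted p = 0.00151). On cellulose the highest was Glotr_14179, which rose from 932, 1223 and 1073 TPM to 20644, 12550 and 6796 TPM, with 3.50 (SE 0.444, adjusted p = 0.000944). The ranges of the 2 genes did not overlap between the carbon sources, and their order was reversed in all 6 libraries. Summed over the 8 gene models, the hydrophobin level was 20285 ± 2637 TPM (SD, n = 3) on glucose and 16805 ± 8412 TPM on cellulose, so the sums overlapped on the deposited scale. As a share of the library total they were 2.78% ± 0.542 on glucose and 1.04% ± 0.555 on cellulose.

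Gene models found by the words glycoside hydrolase also split. Of 13 tested, 4 were upregulated and 2 downregulated. Glotr_39602, of GH71, a family of alpha-1,3-glucanases, rose from 5.41, 4.43 and 5.76 TPM to 110, 84.0 and 88.9 TPM, with a log2 fold change of 4.05 (SE 0.157, adjusted p = 9.58e-06). The other GH71 gene of this list, Glotr_46535, had 2.62, 2.72 and 3.24 TPM on glucose and 1.67, 1.22 and 1.12 TPM on cellulose, and its call as downregulated, at -0.88 (adjusted p = 0.00511), was lost without glucose replicate 1 (-0.93), glucose replicate 2 (-0.91), glucose replicate 3 (-0.80), cellulose replicate 2 (-0.84) or cellulose replicate 3 (-0.79). Glotr_41779, of GH5_9, a family of beta-1,3-glucanases in fungi, rose from 32.6, 39.4 and 42.9 TPM to 750, 542 and 670 TPM, with 4.07 (SE 0.180, adjusted p = 1.38e-05), while the other GH5_9 gene was not called. Glotr_45607, of GH5_22, was at most at 0.108 TPM on glucose and had 19.1, 38.4 and 34.8 TPM on cellulose. Glotr_35804, a glucan synthase of GT48 chosen after its values were seen, had 58.1, 59.2 and 57.7 TPM on glucose and 196, 224 and 223 TPM on cellulose, with 1.87 (SE 0.121, adjusted p = 5.51e-05), and was not called at the same total (0.71). In contrast, GH16, a family of glucanases that act on beta-1,3 and mixed-linkage glucans and was also chosen after the values were seen, had 4 of 6 named members downregulated and none upregulated. Glotr_45916 was the clearest of them, with 19.3, 19.99 and 25.9 TPM on glucose and a listed value of 0 in all 3 cellulose libraries, and it fell below the filter when 1 glucose library was left out.

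Transporters and oxidative enzymes named in the annotation showed calls in both directions. These product-word lists cover only the 1734 gene models named in the study's annotation table, which lacks the transporters Glotr_77119 and Glotr_125226, of which 1401 were tested, 125 upregulated and 205 downregulated, at a median log2 fold change of -0.15. Of 30 transporters of the MFS tested, which import sugars and other small molecules, 6 were upregulated and 9 downregulated. Glotr_46872, named a sugar transporter, rose from 9.50, 7.98 and 8.27 TPM to 108, 129 and 184 TPM, with 3.92 (SE 0.208, adjusted p = 2.73e-05). Glotr_34700 had the least spread, with 5.60, 5.28 and 5.68 TPM on glucose and 73.0, 73.3 and 73.4 TPM on cellulose. The largest falls in this list were in Glotr_38489, from 52.3, 42.2 and 30.8 TPM to 0.586, 0.838 and 0.550 TPM, and in Glotr_6663, named a monocarboxylate transporter, from 64.9, 56.0 and 55.3 TPM to 3.48, 3.96 and 2.09 TPM. On the log2 scale these falls were -5.17 (adjusted p = 1.19e-05) and -4.04 (adjusted p = 2.80e-05).

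Cytochrome P450 enzymes, monooxygenases that modify a wide range of aromatic and lipid compounds, gave different counts by list. Of 35 that the study picked from these libraries, 13 were upregulated and none downregulated, which is not independent evidence of their direction. At the same total the balance turned to 6 upregulated and 10 downregulated, at a median log2 fold change of -0.15, and at the same total outside the 10 highest gene models it was 10 and 4. Glotr_140224 was the strongest of them, from 10.8, 12.3 and 12.6 TPM to 733, 608 and 1458 TPM, with 6.13 (SE 0.319, adjusted p = 2.48e-05). Of 27 tested gene models with P450 in their name, 10 of them on the study's list, 4 were upregulated and 7 downregulated, led by Glotr_38440, which fell from 244, 209 and 202 TPM to 1.77, 3.38 and 3.68 TPM, with -6.03 (SE 0.246, adjusted p = 1.08e-05). Among 13 alcohol and aldehyde dehydrogenases, 5 were downregulated and 1, Glotr_46670 above, was upregulated. The largest of these falls was that of Glotr_34733, a zinc-type alcohol dehydrogenase, from 132, 92.7 and 86.3 TPM to 0.881, 0.919 and 0.321 TPM, with -6.45 (SE 0.266, adjusted p = 1.13e-05). Glotr_45800, annotated as a sorbitol dehydrogenase, fell from 40.2, 57.3 and 126 TPM to 0.993, 0.815 and 1.40 TPM, with -5.43 (adjusted p = 9.55e-05). Amino acid and ammonium transporters had 3 of 9 downregulated and none upregulated, Glotr_40890 with 19.3, 21.7 and 8.25 TPM on glucose and 0.695, 0.685 and 0.507 TPM on cellulose among them.

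Most lists for basic cell functions gave few calls on the deposited scale. None of 11 chaperones, 9 components of the respiratory chain, 2 genes of DNA replication and 4 chitin synthases and chitinases passed both thresholds in either direction. Over all gene models tested 24.3% did, and lists of 2 or 4 genes are too short to be set apart from that share. The median log2 fold changes of these 4 lists were -0.02, 0.02, -0.35 and 0.07. These medians were not computed at the same total, where the median over all gene models was -1.10. Of 8 proteasome genes 1 was downregulated. Of 3 genes found by words for the citrate and glyoxylate cycle 2 were upregulated, among them Glotr_42369. Of 22 genes found by words for cytosolic ribosomal proteins, 1 was downregulated, and 1 upregulated, which is annotated as a ribosomal protein S6 kinase and is no ribosomal protein. The downregulated one, Glotr_39358, was at -1.34 on the log2 scale (adjusted p = 0.00295) and lost its call without glucose replicate 1 (-1.36), glucose replicate 2 (-1.38) or glucose replicate 3 (-1.28). The 24 gene models found by the ribosomal words summed to 6193 ± 365 TPM (SD, n = 3) on glucose and 4461 ± 1037 TPM on cellulose. As a share of the library total they were 0.848% ± 0.103 on glucose and 0.273% ± 0.0695 on cellulose.

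Histones also gave calls in both directions. Of 10 gene models found by histone words 4 were downregulated and 2 upregulated, 1 of the latter being annotated as a subunit of the CCAAT-binding factor, which has a histone fold. Glotr_47667, a histone H2A gene, fell from 144, 151 and 148 TPM to 13.1, 19.9 and 6.92 TPM, with -3.54 (SE 0.342, adjusted p = 0.000286), and another H2A gene, Glotr_40572, from 35.1, 28.5 and 40.3 TPM to 8.68, 9.34 and 5.89 TPM, with -2.06 (SE 0.211, adjusted p = 0.000364). The 2 gene models named histone H4 had opposite calls. Glotr_40128 fell from 166, 149 and 155 TPM to 30.6, 24.0 and 43.7 TPM, with -2.28 (SE 0.220, adjusted p = 0.000281). Glotr_45543 had 377, 355 and 317 TPM on glucose and 945, 686 and 643 TPM on cellulose, with 1.10 (adjusted p = 0.00456), but its direction turned at the same total (-0.064, adjusted p = 0.805) and its call was lost without glucose replicate 1 (1.15), glucose replicate 2 (1.11), glucose replicate 3 (1.03), cellulose replicate 1 (0.93) or cellulose replicate 2 (1.16). The sequences of the H4 gene models were not compared here, and whether they share reads was not tested. In all, 30 gene models above 0 had the same 6 values as another gene model, 6 of them called.

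Of 41 tested gene models found by words for transcription factors, the proteins that switch other genes, 4 were upregulated and 3 downregulated. Over all gene models tested 10.4% were upregulated and 13.9% downregulated, so these counts do not set the list apart. The zinc finger genes named here are annotated only as hypothetical proteins with a zinc finger. Whether they switch other genes was not tested. Glotr_21049, a zinc finger protein, rose from 16.2, 12.4 and 12.0 TPM to 443, 231 and 759 TPM, with 4.94 (SE 0.409, adjusted p = 0.000148). Glotr_40178, another zinc finger protein, rose from 41.2, 38.4 and 28.1 TPM to 276, 312 and 480 TPM, with 3.27 (SE 0.252, adjusted p = 0.000111). Both were highest in the third cellulose replicate, and so was Glotr_29189, a predicted lipase, with 0.600, 0.936 and 0.936 TPM on glucose and 19.2, 30.7 and 102 TPM on cellulose. The largest fall in the list found by transcription factor words was that of Glotr_42925, a zinc finger protein, from 14.0, 17.7 and 12.8 TPM to 0.844, 0.872 and 2.33 TPM, with -3.13 (SE 0.312, adjusted p = 0.000328).

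Genes that moved together often lay side by side. In the gene order of the annotation, 29.0% of 1055 upregulated genes had an upregulated gene next to them, whereas 18.1% of 10105 tested genes did. For downregulated genes these shares were 36.0% of 1409 and 23.2%. Neighbouring genes are not independent, so these shares are a description. Runs of at least 4 neighbours called in the same direction numbered 3 upward and 16 downward.

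The longest run held 9 downregulated genes within 20933 bases. They were, in order, Glotr_127230, Glotr_39098, Glotr_39102, Glotr_92054, Glotr_38440, Glotr_104553, Glotr_127234, Glotr_38489 and Glotr_127236. Among them are an acyl-CoA oxidase (Glotr_39102), the cytochrome P450 gene Glotr_38440 and the MFS transporter Glotr_38489 named above, and the other 6 have no product name here. Their log2 fold changes ran from -3.28 to -6.86, and the mean level on glucose from 24.3 to 263 TPM against 0.304 to 16.3 TPM on cellulose. Glotr_127236 at the end of the run had 114, 98.6 and 70.2 TPM on glucose and 0.218, 0.366 and 0.330 TPM on cellulose. In 8 of the 9 genes the first cellulose replicate was the lowest library, the exception being the transporter Glotr_38489. Of the runs of 4 upregulated genes, 1 began with the glyoxylate dehydrogenase gene Glotr_54623, went on with Glotr_20246 and Glotr_70072 and ended with the transporter Glotr_34700. Glotr_20246 rose from 18.8, 27.7 and 28.1 TPM to 106, 152 and 305 TPM, and Glotr_70072 from 17.1, 26.6 and 25.9 TPM to 127, 131 and 290 TPM, while the genes at both ends of this run had nearly equal cellulose replicates.

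**Figure D5:**
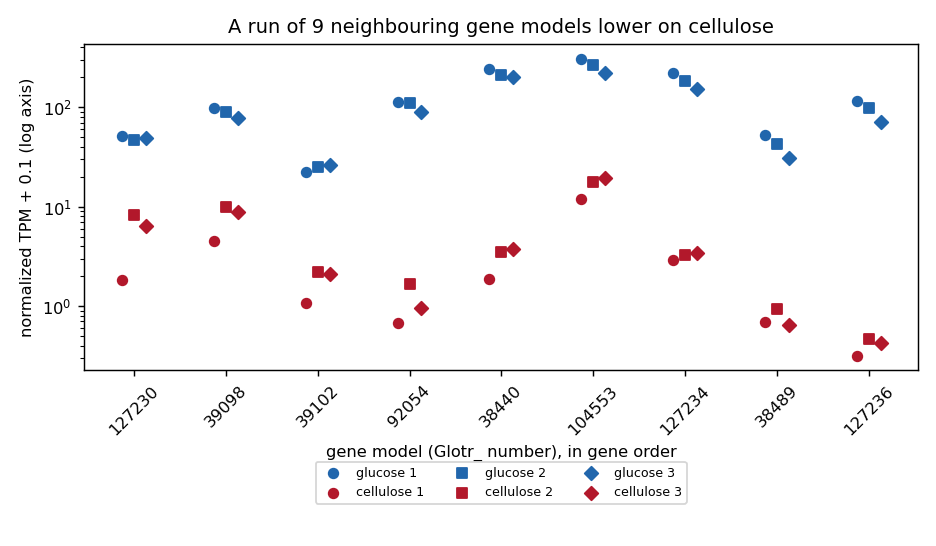
Normalized TPM plus 0.1 on a log axis of 9 neighbouring gene models in gene order, in the 3 glucose (blue) and 3 cellulose (red) libraries. Every gene is lower in every cellulose library than in every glucose library, and cellulose replicate 1 (red circles) is the lowest in 8 of the 9.

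Cellulose was set directly against cedar for a few of the genes above, since both were compared with the same glucose libraries. Of 10503 gene models tested, 625 were higher on cellulose, 5.95% of those tested, and 1124 were lower, 10.7% of those tested. The summed TPM was 835679 ± 108964 (SD, n = 3) on cedar against 1642271 ± 58748 on cellulose. This balance therefore holds on the deposited scale only, and these counts were not made under the other scalings. Of the 15 largest rises over glucose, 5 were also higher on cellulose than on cedar and none lower, and of the 15 largest falls, 1 was lower and none higher, with 1 not tested. Both sets were chosen by the values of the same cellulose libraries, so these counts are not independent of that choice. Glotr_42369, the oxalate gene, had the widest difference named here, with 3286 ± 1379 TPM (SD, n = 3) on cellulose against 17.7 ± 4.83 TPM on cedar, a log2 fold change of 7.43 (adjusted p = 0.000225) between them. Glotr_130577, without a product name, had 7556 ± 2569 TPM on cellulose, 186 ± 67.6 TPM on cedar and 261 ± 45.3 TPM on glucose, with 5.36 (adjusted p = 0.000608) over cedar and 4.81 (adjusted p = 5.66e-05) over glucose. Glotr_45607 had 30.8 ± 10.3 TPM on cellulose and 0.991 ± 0.600 TPM on cedar, with 4.43 (adjusted p = 0.000842), and Glotr_141319 had 232 ± 35.8 TPM on cellulose and 24.2 ± 6.99 TPM on cedar, with 3.27 (adjusted p = 0.000608).

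Some genes that fell on cellulose were nevertheless higher there than on cedar. Glotr_19724, the hydrophobin, had 2792 ± 1069 TPM (SD, n = 3) on cellulose and 376 ± 61.2 TPM on cedar, with a log2 fold change of 2.84 (adjusted p = 0.00130). Glotr_111144 had 6529 ± 671 TPM on glucose, 361 ± 242 TPM on cellulose and 9.15 ± 2.49 TPM on cedar, with 5.00 (adjusted p = 0.00116) between cellulose and cedar. The polyketide synthase Glotr_116317 had 16.7 ± 5.19 TPM on cellulose and 3.23 ± 0.336 TPM on cedar, with 2.16 (adjusted p = 0.00141). Glotr_126546, among the highest transcripts on glucose and not called on cellulose, had 16756 ± 3082 TPM on glucose, 11908 ± 7887 TPM on cellulose and 321 ± 43.2 TPM on cedar, with 4.98 (adjusted p = 0.00115) between cellulose and cedar. These 8 differences between cellulose and cedar kept their calls with each library left out in turn and under the other 4 scalings.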

How the data were processed

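RNA was measured by stranded mRNA sequencing. Per the labels and the study's methods, reads were filtered with FaQCs, pseudoaligned to the JGI gene models with kallisto 0.44.0 and normalized with sleuth 0.29.0. The deposited signal is this normalized TPM, held in 1 column per library. The table gives no counts, and the reads per library that the study states were not used here, so precision rests on the 3 replicates. Library columns differ in their totals, so the unit is treated as a rescaled signal and the planned test was kept. Tests used limma 3.58.1 in R 4.3.3 (lmFit, eBayes with trend) on log2(TPM + 0.5), two-sided, over the 2 groups compared, and were tested on simulated data. Tables and plots used Python 3.11.15, pandas 2.3.3 and matplotlib 3.10.9.

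Family members follow the study's tables, and product words were matched in the names of 1734 gene models only. Gene order and length came from RefSeq (assembly Glotr1_1, another strain) for 11422 of the gene models. The members, lists and genes were chosen with earlier results of these data known: the 15 largest rises and falls, the 15 highest on each carbon source, family members, up to 3 called genes a direction per word list, and the longest runs. Genes named beyond this are marked. Promoter motifs and other sequences were not analysed here. The alternatives are listed with their effect in the closing section.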

Additional observations from a re-analysis of the deposited data

How the results depend on the processing

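The counts of calls depended on the scaling above all. Against 1093 upregulated and 1463 downregulated genes as deposited, a same total for every library gave 353 and 5934, and a same total outside the 10 highest gene models of any library gave 686 and 2662. The share of calls that were upregulated was 42.8% as deposited, 5.61% and 20.5% under these settings, 47.5% with median-of-ratios and 50.2% with quantile normalization. Without a filter the calls were 892 and 1191. With each library left out in turn there were 798 to 1254 upregulated and 1011 to 1499 downregulated genes, and a difference in the share of the 10 highest gene models of 19.5 to 24.7 percentage points. Of the calls, 332 upregulated and 851 downregulated genes were kept under all 19 alternatives.

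Whether replicate numbers pair the libraries was not settled. Deviations from the group means correlated at 0.0153, 0.0833 and 0.126 between the same numbers and at -0.210 to 0.186 between unlike ones. With 3 libraries a group these values cannot decide it. A replicate block gave 1047 and 1322 calls. Under it Glotr_42001, Glotr_101715, Glotr_39358 and Glotr_46535 lost their calls against glucose, and Glotr_116317 its call against cedar (adjusted p = 0.0104). Without a filter, Glotr_42001 (adjusted p = 0.404), Glotr_101715 (0.149), Glotr_19724 (0.054) and Glotr_82342 (0.0109) were not called. Glotr_45543 was the 1 named gene that changed direction, to -0.064 at the same total. Glotr_126546 passed only with quantile normalization, as a fall (-2.20, adjusted p = 0.00575). Glotr_46535 also lost its call with quantile normalization (-0.44) and, like Glotr_107459, with the fold threshold on the fit. The causes were not tested. The table holds normalized values without counts, so no counting error is given for single genes. Setting the fold threshold on the fit for single genes was chosen after seeing the data.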
